A study of Danio rerio with 7 samples.

Results

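The 9 genes described here encode alpha and beta tubulins of the zebrafish: the beta tubulin genes tubb4b, tubb5, tubb2b and tubb2, and the alpha tubulin genes tuba1a, tuba1b, tuba1c, tuba2 and tuba8l4. They are 9 of 30421 gene rows in the deposited table and were selected on their names as neural and general tubulins, with no threshold on a measured value, but with the earlier hm41 and WT levels of these libraries known. Their differences between genotypes are therefore given as a description, and nothing is supported with them. RNA came from pooled heads of larvae 5 days post fertilization. The mutant group holds 3 libraries of the genotype labelled hm41, a line called leaky in a study of the blood-brain barrier, and the other group holds 3 libraries of wild type (WT) siblings. The labels give neither the zygosity of hm41 nor the number of heads in a pool, and they do not say whether the pools were independent, so the p-values measure only the spread between these libraries.

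Microtubules are built from dimers of an alpha and a beta tubulin, and vertebrates carry several genes for each. Neurons need large amounts for their axons and dendrites, cilia and photoreceptor connecting cilia are built on stable microtubules, and dividing cells use them for the spindle. The paralogs are nearly alike along most of the protein and differ mainly in the tail, where many microtubule binding proteins and modifying enzymes act. Cells also adjust tubulin RNA to the pool of free dimers, since surplus dimers trigger decay of the messages.

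Library totals ran from 33775984 to 114604258 counts, but 93.6% to 95.7% of each lay in the 8 most abundant rows, which left 1664845 to 4959749 counts for all other genes. WT 67 had the fewest of these. It also had the lowest mean correlation with the other libraries, 0.948 across genes on a log scale, against 0.955 to 0.962 for the others. The tubulin members held 2266 to 8243 counts per library. Levels are in counts per 1000000 (CPM) of scaled library totals, which count the abundant rows too. In pooled heads, fewer cells of a type and less RNA per cell cannot be told apart.

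The summed tubulin RNA of the 9 genes was much alike in the genotypes, while single members had values on either side, none of them called. Together they had 85.9, 75.3 and 92.3 CPM in hm41 69, 70 and 71, against 87.1, 74.8 and 96.9 CPM in WT 66, 67 and 68. The ranges overlapped almost wholly. The alpha members summed to 43.0 ± 3.97 CPM in hm41 and 40.2 ± 4.44 CPM in WT, and the beta members to 41.5 ± 5.44 CPM in hm41 and 46.1 ± 6.72 CPM in WT (SD, n = 3 each). On the log2 scale the means differed by 0.10 for alpha and -0.15 for beta, and by 0.30 and 0.04 with totals as the scale. The ratio of alpha to beta counts, which needs no scaling between libraries, was 0.931, 1.14 and 1.06 in hm41, against 0.894, 0.896 and 0.833 in WT. In this ratio of the 9 chosen members every hm41 library lay above every WT library. Its mean was 1.04 ± 0.106 in hm41 and 0.875 ± 0.0357 in WT (SD, n = 3 each). The other alpha and beta tubulin rows were left out of it, and the separation holds for the 9 alone. With the counts of the other matched alpha and beta rows added, hm41 69 lay below WT 66 and WT 67. The lowest hm41 value (0.931, hm41 69) lay near the highest WT value (0.896, WT 67), and the difference was not tested.

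All 9 genes passed the filter on low counts, and 0 of the 9 were called in the fit over 19275 genes (edgeR's quasi-likelihood test, Benjamini-Hochberg adjusted p under 0.05). Of all tested genes, 0.0571% were called. DESeq2 and limma-voom also called 0 of the 9, but DESeq2 gave tubb2 and tuba1b no adjusted p and so could not call them. At an unadjusted p under 0.05 edgeR's test passed 2 members, beside 10.4% of all tested genes. These were tuba2, higher in hm41 like 5.35% of all tested genes, and tubb4b, lower in hm41 like 5.05%. The same 2 members had no overlap between the genotypes, beside 16.5% of all tested genes. Every hm41 library lay above WT for 8.09% of all tested genes and below WT for 8.44%. The median log2 fold change of the 9 was 0.02, with 5 above and 4 below 0, and it went to -0.24 without WT 67 and 0.27 without WT 68. Among all tested genes the median was -0.02, with 47.9% above and 52.1% below 0.

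**Figure D1:**
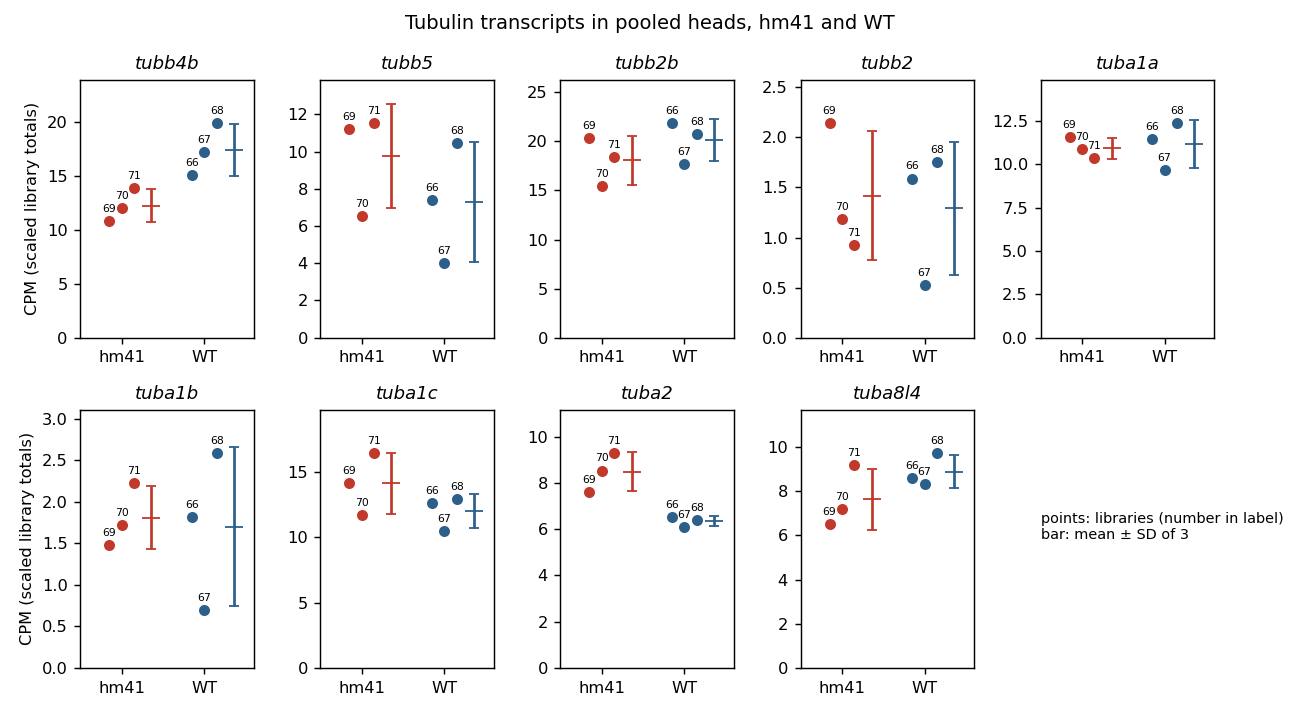
CPM of each tubulin member in every library (points, numbered as in the labels), with hm41 left of WT and the mean ± SD of 3 libraries beside the points. The hm41 and WT points do not overlap for tubb4b (hm41 lower) and tuba2 (hm41 higher); WT 67 lies lowest of the 6 libraries for tubb5, tubb2, tuba1a, tuba1b, tuba1c and tuba2.

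Among the beta tubulins, the groups were apart for tubb4b. Its human counterpart is a broadly made beta tubulin found in cilia, and variants of it cause combined retinal and hearing loss. It had 10.8, 12.0 and 13.8 CPM in hm41 69, 70 and 71, against 15.1, 17.2 and 19.9 CPM in WT 66, 67 and 68. The highest hm41 library stayed below the lowest WT library. Its fitted log2 fold change was -0.51, with -0.86 to -0.16 as the 95% confidence interval, at an adjusted p of 0.26 by edgeR's test. Of all tested genes, 10.8% had a value as low or lower. Over the alternatives the value of tubb4b ranged from -0.60 to -0.32, and the groups overlapped when libraries were scaled by their totals alone.

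The gene tubb5 is expressed in the developing nervous system of the zebrafish. It had 11.2, 6.54 and 11.5 CPM in hm41 69, 70 and 71, against 7.39, 4.03 and 10.5 CPM in WT 66, 67 and 68. The groups overlapped, since hm41 70 lay below WT 66 and WT 68. Its log2 fold change was 0.39, with a 95% confidence interval of -0.43 to 1.22 (adjusted p = 0.765, edgeR). It depended on single libraries, at 0.12 without WT 67 and 0.73 without WT 68.

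The beta tubulin gene tubb2b is known in humans for variants that disturb neuronal migration in the cortex. It had 20.3, 15.5 and 18.4 CPM in hm41 69, 70 and 71, and 21.9, 17.7 and 20.8 CPM in WT 66, 67 and 68, with overlap. Its log2 fold change of -0.16 had a 95% confidence interval from -0.51 to 0.19. The row tubb2 was sparse, with 84, 96 and 38 counts in hm41 69, 70 and 71 and 145, 16 and 149 counts in WT 66, 67 and 68. Its log2 fold change of 0.05 had a 95% confidence interval from -0.79 to 0.88, and its sign turned without WT 67 (-0.25). With an interval this wide, neither the size nor the direction of a change of tubb2 was settled.

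The alpha tubulin genes tuba1c, tuba1a and tuba1b follow each other on chromosome 23 in the RefSeq annotation of GRCz12tu, with LOC141380531 between tuba1c and tuba1a. The tuba1a promoter is used in fish to mark neurons that grow or regrow axons, and variants of human TUBA1A cause lissencephaly. In the hm41 libraries tuba1a had 10.4 to 11.6 CPM, and in the WT libraries 9.70 to 12.4 CPM (log2 fold change -0.04, 95% confidence interval -0.37 to 0.30). For tuba1c the levels were 11.7 to 16.5 CPM in hm41 and 10.5 to 12.9 CPM in WT (log2 fold change 0.23, 95% confidence interval -0.13 to 0.58). The groups overlapped for both genes. The row tuba1b had 58, 139 and 91 counts in hm41 69, 70 and 71 and 166, 21 and 220 counts in WT 66, 67 and 68, for a log2 fold change of 0.02 (95% confidence interval -0.72 to 0.75). Without WT 67 it was -0.29.

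The estimated counts of tuba1a, tuba1b, tuba1c and tuba8l4 were not whole in any of the 6 libraries, as occurs when reads that fit several genes are divided among them. Those of tubb5 and tubb2 were whole in all 6. How reads were divided is therefore uncertain for tuba1a, tuba1b, tuba1c and tuba8l4, and which genes shared them was not examined. For tubb4b and tubb2b 4 of the 6 values, and for tuba2 2 of the 6, were not whole.

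Higher values in every hm41 library were seen for tuba2. It had 7.61, 8.54 and 9.30 CPM in hm41 69, 70 and 71, against 6.54, 6.10 and 6.40 CPM in WT 66, 67 and 68. The 3 WT values lay within a narrow band, with a coefficient of variation of 3.53%, against 9.96% in hm41. The fit gave a log2 fold change of 0.42, with 0.09 to 0.74 as the 95% confidence interval and an adjusted p of 0.339 by edgeR's test. For tuba8l4 the levels were 6.52, 7.21 and 9.18 CPM in hm41 69, 70 and 71 and 8.62, 8.32 and 9.74 CPM in WT 66, 67 and 68, with overlap through hm41 71 (log2 fold change -0.22, 95% confidence interval -0.57 to 0.13).

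**Figure D2:**
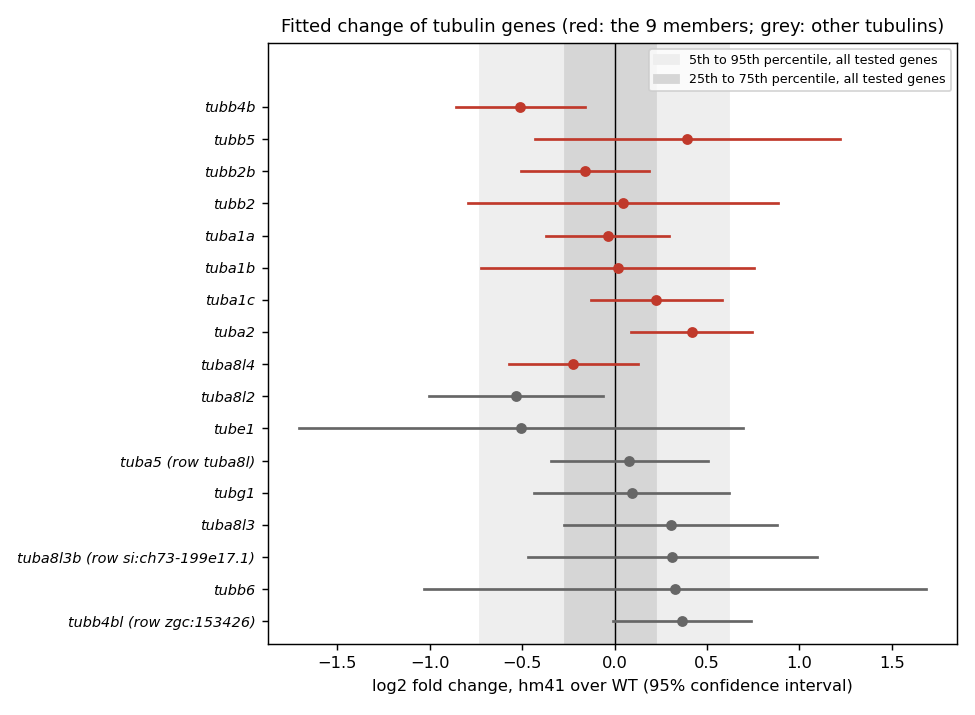
Log2 fold change of hm41 over WT with its 95% confidence interval for the 9 tubulin members (red) and 8 other tested tubulin genes (grey), over bands for the 5th to 95th and the 25th to 75th percentile of all tested genes. The intervals of tubb4b (-0.86 to -0.16), tuba2 (0.09 to 0.74) and the grey tuba8l2 leave out 0 before adjustment for the number of genes.

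Shares of reads within each family do not depend on how libraries are scaled. They are shares of counts, not of molecules, because transcript lengths were not used here, and no order of levels between the genes is read from them. Within the alpha members, tuba2 held 18.4%, 21.3% and 19.6% in hm41 69, 70 and 71, against 15.9%, 17.3% and 14.5% in WT 66, 67 and 68. The exact binomial 95% intervals, which cover counting error only, overlapped for hm41 69 (16.5% to 20.4%) with WT 66 (14.8% to 17.1%) and WT 67 (15.1% to 19.7%), and for hm41 71 (17.8% to 21.4%) with WT 67. For tuba8l4 the shares were 15.7%, 18.0% and 19.3% in hm41 and 20.96%, 23.5% and 22.1% in WT. The interval of hm41 71 (17.6% to 21.1%) overlapped those of all 3 WT libraries, which began at 19.67% to 21.02%. These 2 genes were the only members of the 9 whose shares did not overlap between the genotypes. Shares within a family depend on each other, and no such count was made for other genes. No result about the members is therefore read from it.

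The count ratio of tuba2 to tuba8l4 was 1.17, 1.18 and 1.01 in hm41 69, 70 and 71, against 0.76, 0.734 and 0.657 in WT 66, 67 and 68. This ratio was singled out after its values were seen. Transcript lengths were not used, so it gives no order of levels between the genes. The counts of tuba8l4 were not whole in any library, and the ratio carries that uncertainty. Within the beta members, tubb4b held 24.3%, 34.1% and 31.0% in hm41 and 32.8%, 43.5% and 37.7% in WT, with overlap through hm41 70 and WT 66. For tubb5 the shares were 25.2%, 18.6% and 25.8% in hm41, against 16.1%, 10.2% and 19.8% in WT. The mean difference, hm41 minus WT, was -8.21 percentage points for tubb4b (pooled SD 5.19) and 7.84 for tubb5 (pooled SD 4.43). Without each library in turn it ranged from -10.8 to -5.45 for tubb4b and from 5.27 to 10.1 for tubb5. The gene tubb2b held 43.6% ± 2.30 in hm41 and 43.9% ± 4.28 in WT (SD, n = 3 each).

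The ratio of tuba2 to tubb4b, the 2 members whose levels did not overlap, was 0.704, 0.711 and 0.672 in hm41 69, 70 and 71 and 0.434, 0.356 and 0.321 in WT 66, 67 and 68. It too was singled out after its values were seen. Its separation follows from that of the 2 genes, which lay apart in opposite directions. Of the 36 ratios between 2 members, 10 had no overlap between the genotypes. They included 5 of the 8 ratios with tubb4b and 4 of the 8 with tuba2, and the ratio of these 2 genes is in both counts. The ratios share genes, and the share of such ratios among pairs of all tested genes was not computed. No result about the members is therefore read from the count.

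**Figure D3:**
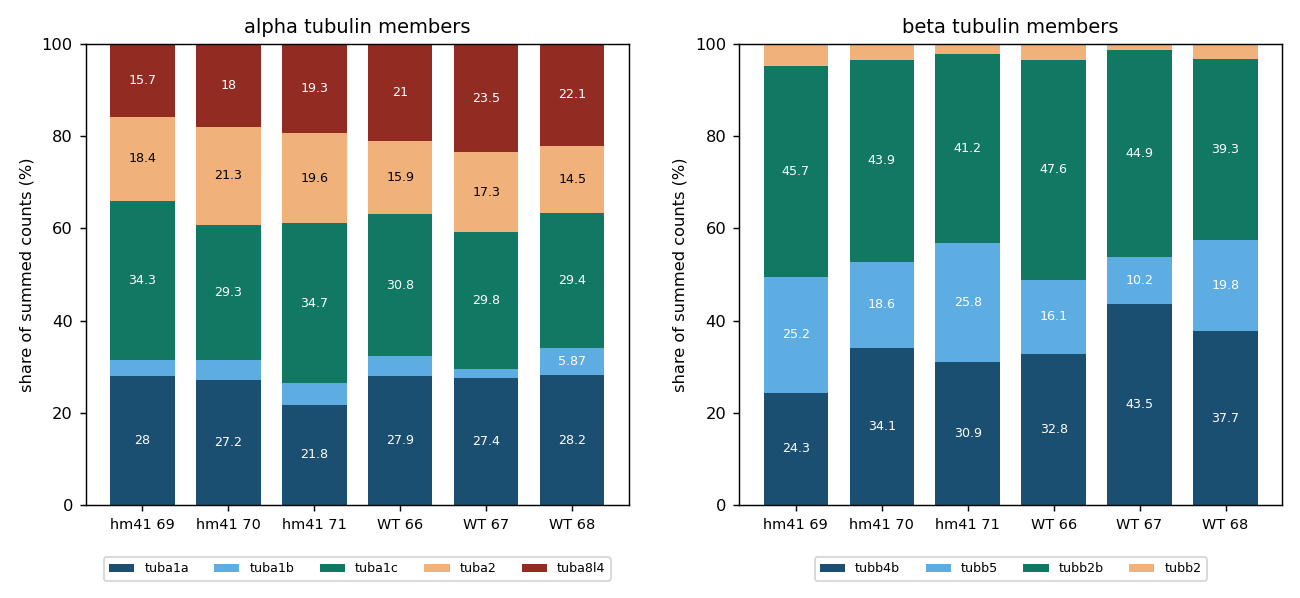
Share of each tubulin member in the summed counts of the 5 alpha (left) and 4 beta (right) members, in percent, for each hm41 and WT library. The tuba2 segment is larger and the tuba8l4 segment smaller in all 3 hm41 libraries than in any WT library, and the tubb5 segment is smallest in WT 67 (10.2%).

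The members also differed in how far libraries of the same genotype lay apart. The coefficient of variation in WT was 56.0% for tuba1b, 51.5% for tubb2 and 44.1% for tubb5, against 3.53% to 13.9% for the other 6. Without WT 67 it was 24.6%, 6.89% and 24.3% for these 3 genes. In hm41 it ranged from 5.60% for tuba1a to 45.2% for tubb2.

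Beyond the 9, another 12 tubulin symbols matched rows, of which 8 passed the filter, and 0 of the 8 were called by edgeR, DESeq2 or limma-voom. DESeq2 may have given those with few counts no adjusted p, and so been unable to call them. At an unadjusted p under 0.05 edgeR passed 1, tuba8l2, with 1.64 ± 0.113 CPM in hm41 and 2.42 ± 0.614 CPM in WT (SD, n = 3 each; log2 fold change -0.53 ± 0.225, SE; adjusted p = 0.417). The beta tubulin gene tubb4bl, listed as zgc:153426, had 6.91 ± 1.19 CPM in hm41 and 5.29 ± 0.935 CPM in WT, a log2 fold change of 0.37 ± 0.178 (SE), of opposite sign to tubb4b. For tuba8l3 the value was 0.30 ± 0.276 (SE). The gamma tubulin gene tubg1, which nucleates microtubules, had a log2 fold change of 0.09. The rows tuba4l, tuba7l, tubb1 and tubd1 did not pass the filter, with at most 16 counts in any library.

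Proteins that act on tubulin were read from 6 further lists. Of their 148 tested genes edgeR and limma-voom called 0, while DESeq2 called map1b (adjusted p = 0.0432) and edgeR without the filter on low counts called stmn2b (adjusted p = 0.0288). At an unadjusted p under 0.05 edgeR passed 23, beside 10.4% of all tested genes. The stathmins, which bind tubulin dimers, and the severing enzymes had a median of 0.20 (12 of 14 tested genes above 0). Their summed level was 64.0 to 67.8 CPM in hm41, above the 50.9 to 56.3 CPM in WT. The growth cone stathmin stmn2b had 5.60 ± 0.308 CPM in hm41 and 3.38 ± 0.399 CPM in WT (SD, n = 3 each; log2 fold change 0.74 ± 0.169, SE; adjusted p = 0.122), and stmn1b had 28.0 ± 2.19 CPM in hm41 and 21.1 ± 0.976 CPM in WT (0.41 ± 0.157, SE; adjusted p = 0.356). For stmn3 the value was 0.40 ± 0.267 (SE).

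Motor subunits had a median of 0.14, with 25 of 36 tested genes above 0. The axonal kinesins kif1ab (0.46 ± 0.170, SE) and kif5aa (0.42 ± 0.159) had higher levels in hm41, and kif21b (-0.76 ± 0.217) had lower ones. These 3 had the smallest p of the list, and none overlapped between the genotypes. Of the 36, 7 lay above and 1 below WT in every hm41 library, beside 8.09% and 8.44% of all tested genes. Among 39 tested microtubule binding proteins, 10 lay above and 5 below WT in every hm41 library, beside 8.09% and 8.44% of all tested genes. By sign they were divided, with 19 above and 20 below 0 and a median of -0.05. This median was positive, at 0.01 to 0.12, without hm41 70, hm41 71, WT 66, WT 67 or WT 68 and with the term for LOC110438492. In the list map1b, a protein of growing axons, had a log2 fold change of 0.55 ± 0.160, map1sb one of 0.51 ± 0.188, and the tip protein gene clip1b one of -0.88 ± 0.297.

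Folding factors had a median of -0.12 (15 of 24 below 0), which was 0.04 without WT 68. Below WT in every hm41 library were 3 of the 24, and above WT in every hm41 library 2, beside 8.44% and 8.09% of all tested genes. The 3 with the smallest p were the chaperonin subunit cct4 (-0.48 ± 0.177, SE), tbcela (-0.79 ± 0.298) and the prefoldin subunit pfdn4 (-0.55 ± 0.248), the same 3 that lay below WT. The modifying enzymes had a median of 0.16 (12 of 19 above 0), and of 0.0073 without hm41 69. Tubulin tyrosine ligase, ttl, which restores the last tyrosine of alpha tubulin, had a value of 0.42 ± 0.215, and vash2, of the family that removes that tyrosine, one of 0.44 ± 0.198. In the same list agbl1, a carboxypeptidase gene, had a value of -0.51 ± 0.244.

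The list of nucleation genes had a median of -0.13 (11 of 16 below 0), which was -0.01 without WT 66 and -0.03 without hm41 71. It included the centrosomal genes cdk5rap2, listed as zgc:55582 (-0.52 ± 0.166, SE), pcnt (-0.39 ± 0.169) and akap9 (-0.31 ± 0.159). For each of these 3, which had the smallest p of the list, all hm41 libraries lay below all WT libraries. None was called by edgeR, DESeq2 or limma-voom. Of the 16, 3 lay below and 1 above WT in every hm41 library, beside 8.44% and 8.09% of all tested genes. The medians of nucleation, folding and microtubule binding were above 0 when only library totals were used for scaling, a setting that puts the median of all tested genes at 0.20. They were then 0.12 for nucleation, 0.08 for folding and 0.28 for microtubule binding.

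**Figure D4:**
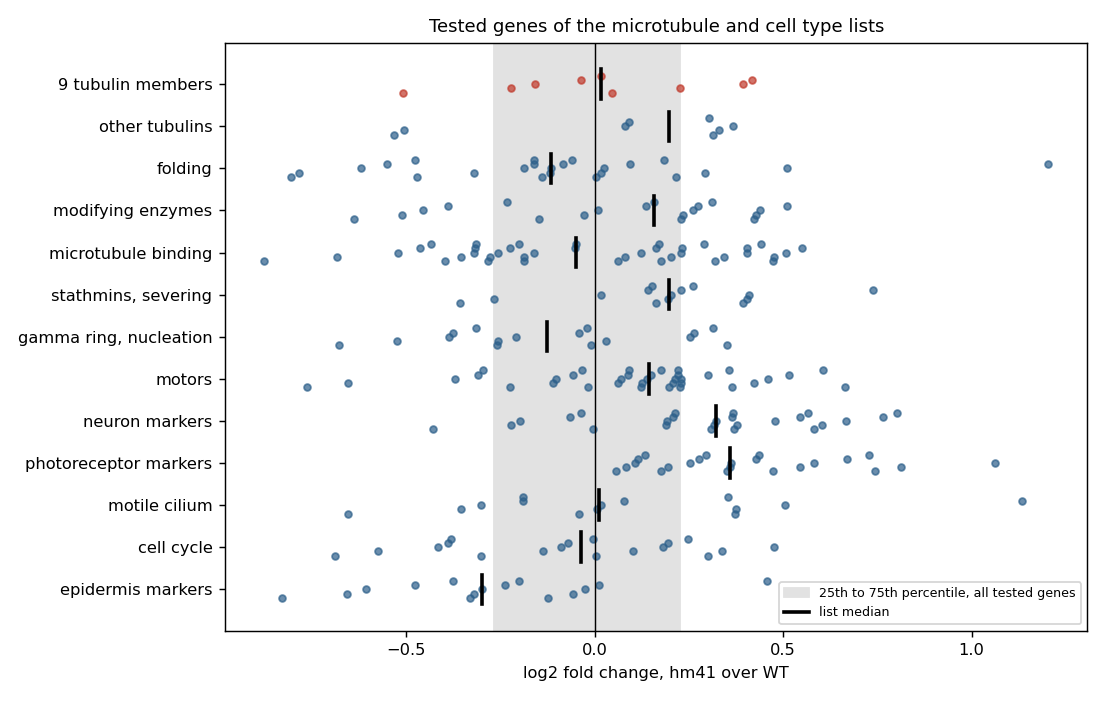
Log2 fold change of hm41 over WT for every tested gene of the tubulin, microtubule and 5 marker lists (neuron, photoreceptor, motile cilium, cell cycle and epidermis; points), with list medians as black bars and the 25th to 75th percentile of all tested genes shaded. The medians run from -0.30 for epidermis markers to 0.36 for photoreceptor markers, and the 9 tubulin members lie at 0.02.

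Levels of cell type markers stood as follows beside these values. Of 25 tested neuron markers, 19 were above 0 (median 0.32), and their summed level was 227 to 287 CPM in hm41 and 173 to 196 CPM in WT. Of these markers edgeR and limma-voom called 0. DESeq2 called 6 higher in hm41, beside 98 of the 19275 genes in its fit. It gave some of the 19275 no adjusted p, and the share among the genes it could call was not computed. By edgeR 8 passed an unadjusted p under 0.05, all of them higher in hm41, beside 5.35% of all tested genes. Of the 25, 10 lay above and 0 below WT in every hm41 library, beside 8.09% and 8.44% of all tested genes. The synaptic vesicle genes sypa and sv2a had log2 fold changes of 0.80 ± 0.173 and 0.77 ± 0.187 (SE), and the RNA binding protein gene elavl4 had 0.67 ± 0.157. These 3 were among the 6, and edgeR without the filter on low counts called them too. The row gap43 was at 0 in all libraries.

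Photoreceptor markers were above 0 in 23 of 23 (447.6 to 477.5 CPM in hm41, 231 to 344.5 CPM in WT), and the ultraviolet opsin opn1sw1 was called higher (log2 fold change 1.06, adjusted p = 0.0328, edgeR). That call was lost without hm41 70, hm41 71, WT 66 or WT 67, at adjusted p of 0.0637 to 0.277 by edgeR. Of the 23, 7 lay above and 0 below WT in every hm41 library, beside 8.09% and 8.44% of all tested genes. The cone opsin opn1mw1 and the outer segment gene prph2a had values of 0.74 and 0.73. DESeq2 called both, among 5 of the list that it called, all higher in hm41, beside 98 of the 19275 genes in its fit. In edgeR's main fit neither opn1mw1 nor prph2a was called. Without the filter on low counts edgeR called both (adjusted p = 0.0153 and 0.0271), as it did without WT 68 (adjusted p = 0.0417 and 0.0488). Epidermis markers were below 0 in 13 of 15 (848.7 to 951 CPM in hm41, 1191 to 1368 CPM in WT). Of the 15, 6 lay below and 1 above WT in every hm41 library, beside 8.44% and 8.09% of all tested genes. The 3 with the smallest p were the keratin genes krt5, krt17 and krt4 at -0.83, -0.66 and -0.61. DESeq2 called all 3, beside 42 lower in hm41 of the 19275 genes in its fit. By limma-voom and edgeR's main fit none of the 3 was called. For krt5 edgeR also gave a call without the filter on low counts (adjusted p = 0.00955). It did so too with the term for LOC110438492 (adjusted p = 0.0447). Without WT 68 the epidermis median of -0.30 was -0.15. Motile cilium genes were near the filter, with 14 of 32 matched genes tested, a median of 0.01 and sums of 6.12 to 6.71 CPM in hm41 and 6.47 to 7.29 CPM in WT. In that list rsph1, dnah9 and ift172 had values of 1.13 ± 0.610, -0.65 ± 0.373 and -0.35 ± 0.239 (SE). That of rsph1 rested on hm41 71, with 0.806 CPM. Its levels were 0.179 and 0.173 CPM in hm41 69 and 70, and 0.164 to 0.176 CPM in WT. The part of these marker levels in the tubulin values was not tested.

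In the RefSeq gene order of GRCz12tu, which is not the build named for the files, tubb4b lies on chromosome 14 with 39 genes of the table between it and spock1, the gene the study linked to the phenotype. Of these, 26 were tested, and edgeR called 2, csf1ra and gstp2, each lower in hm41. Of all tested genes it called 0.0571%, in either direction. The log2 fold changes of csf1ra and gstp2 were -3.36 and -3.65, and limma-voom called both, while DESeq2 gave them no adjusted p. On the far side of spock1 edgeR called further genes of chromosome 14 lower in hm41. Of the 26, 20 had values below 0, beside 52.1% of all tested genes, and their median was -0.17. Relative to the median of all genes 20 lay lower, also with library totals alone, but 13 of 25 without WT 68 and 15 of 25 without hm41 70. For spock1 itself the value was -0.38 ± 0.231 (SE), with an adjusted p of 0.594 by edgeR's test.

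The nearest neighbours of tubb4b had values nearer to 0 or with wide errors. On the side of spock1 the next gene, aup1, had 0.907 ± 0.247 CPM in hm41 and 0.891 ± 0.240 CPM in WT (SD, n = 3 each; log2 fold change -0.04 ± 0.302, SE). Then followed kazald2, with no count in any library, tlx2 (-0.02), npm1b (-0.22) and fgf24 (-0.46 ± 0.560, SE). On the far side loxl3a, bscl2l and si:ch73-22a13.3 did not pass the filter, while LOC103912062 (-0.54 ± 0.770, SE) and kctd8 (-0.26 ± 0.475) had few counts. With the exception of npm1b, the tested neighbours averaged at most 55.8 counts per library. Standard errors of the tested neighbours ran from 0.231 for npm1b to 0.770.

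**Figure D5:**
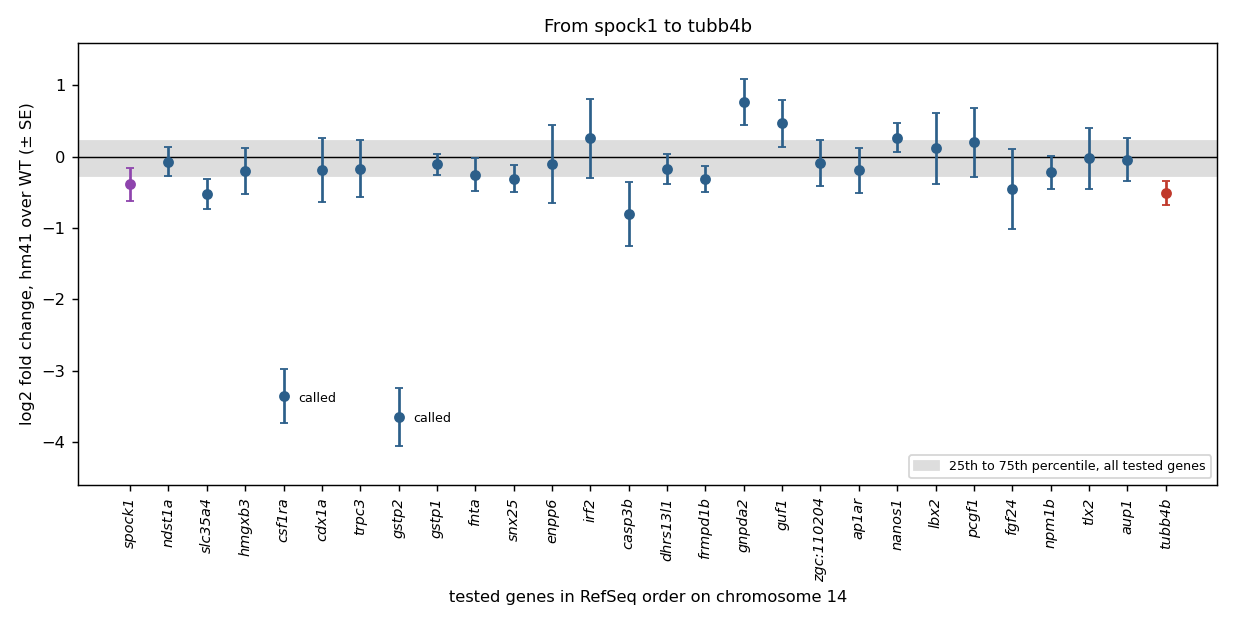
Log2 fold change of hm41 over WT (± SE) for the tested genes from spock1 (left, purple) to tubb4b (right, red) in RefSeq gene order on chromosome 14, with the 25th to 75th percentile of all tested genes shaded. The called genes csf1ra (-3.36) and gstp2 (-3.65) stand far below the rest, and tubb4b lies at -0.51.

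Likeness to the tubulin profile was measured as the root mean square difference of log2 CPM over the 6 libraries, each gene centred on its own mean, among 6901 genes with at least 100 counts on average. Nearest to the summed members were cdc42se1 (0.0357), the chaperonin subunit gene cct7 (0.0408), adnpa (0.0455), prpf4ba (0.0471) and caska (0.0485). The members are themselves part of their sum, in which abundant members weigh most, so their distances are no independent measure. Of them, tuba1a (0.110), tubb2b (0.122) and tuba1c (0.142) lay closest to it and the sparse tubb2 (0.599) farthest. Among the genes nearest to tubb4b alone were the actin binding profilin gene pfn1 (0.0523), cebpz (0.0723), cry2 (0.0821) and dsg2.1 (0.0957). The level of pfn1 was 17.3, 17.9 and 22.4 CPM in hm41 69, 70 and 71 and 22.8, 25.2 and 30.0 CPM in WT 66, 67 and 68.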

How the data were processed

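The authors deposited expected counts per gene, estimated and not scaled between libraries, for 6 bulk libraries. Per the submitters' processing notes, the tools were RSEM, TopHat and Bowtie2 and the build GRCz11, with no version given. Directional libraries were made from total RNA, per the labels' protocols. Strand setting and annotation release: not given in the sources used here. A single-cell library mixing genotypes and ages was not analysed here.

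Per library, 17.8% to 23.2% of the values were not whole (no tolerance), and all were rounded. edgeR 4.0.16 in R 4.3.3 fitted hm41 against WT on the whole table (filterByExpr, TMM, robust quasi-likelihood F-test, two-sided, no covariate) and p-values were adjusted by Benjamini-Hochberg over 19275 genes at a threshold of 0.05. Alternatives were DESeq2 1.42.0, limma-voom (limma 3.58.1), other scalings and filters, a term for LOC110438492 and fits without each library. That row had 2743068 counts in hm41 70, 2589780 in hm41 71 and 5141165 in WT 68, but next to none elsewhere. The fit was tested on simulated data. The planted changes were larger than any fitted for the members, so the outcome says nothing about calling changes of that size. A pseudocount of 0.01 CPM entered the likeness measure.

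The members and the 16 other gene lists were chosen with earlier results of these data known. Named are all members, the called genes and the 3 genes with the smallest p of each list, the 5 genes on either side of tubb4b, the called genes between it and spock1, and the 5 genes most like each profile, of which 1 is not reported here. Symbols missing from the table were matched through RefSeq synonyms of GRCz12tu.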

Additional observations from a re-analysis of the deposited data

How the results depend on the processing

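No paired analysis was run because the labels give no pairing between hm41 and WT libraries. None of the 9 members was called under any alternative run (0 in each, with the lowest adjusted p at 0.0564, for tubb4b by DESeq2), and tubb4b, tuba2, tuba1c, tuba8l4 and tubb5 kept their direction in all of them. DESeq2 could not call tubb2 or tuba1b, to which it gave no adjusted p, and rows of the other lists with few counts may lack one too. Without each library in turn the log2 fold change ranged from -0.60 to -0.40 for tubb4b, from 0.36 to 0.49 for tuba2 and from 0.12 to 0.73 for tubb5. When only library totals scaled the data, the median of all genes went to 0.20 and the sign turned for tubb2b (0.064) and tuba1a (0.18). Relative to that median they stayed at -0.14 and -0.02. The sign of tuba1b turned with upper quartile factors (-0.0080) and with the term for LOC110438492 (-0.17), and that of tubb2 with limma-voom (-0.063). Without each library the range was -0.12 to 0.039 for tuba1a, -0.29 to 0.42 for tuba1b and -0.34 to 0.29 for tubb2. The cause of these turns was not tested. Members without overlap numbered 1 with library totals alone (tuba2, not tubb4b) and 2 to 4 without each library (4 without hm41 70), where fewer samples make separation easier. The count of all called genes was 140 with DESeq2, 47 with library totals alone, 131 with no low count filter, 19 with the term for LOC110438492 and 6 to 44 without each library (44 without WT 68, 20 without hm41 69, 6 without hm41 70). Of the 26 genes between tubb4b and spock1, an alternative set chosen after seeing the data, 8 were below 0 with library totals alone and 15 to 20 without each library. Shares by coding length were not run, since no lengths were used here. Counts were lowest for tubb2 and tuba1b, with as few as 16 and 21 in WT 67. Their standard errors were 0.386 and 0.341, but that of tubb5, with a mean of 521 counts, was 0.353. The part of depth in these errors was not tested.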

Other observations

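The lists of other cell types were read in the same fit, by counts and medians. Radial glia markers were above 0 in 13 of 15 tested genes (median 0.28), with summed levels of 146 to 161 CPM in hm41 and 102 to 130.1 CPM in WT. On the log2 scale, the fold change of the water channel gene aqp4 was 0.87 ± 0.246 (SE), that of the glutamate transporter gene slc1a2a 0.62 ± 0.192 and that of the gap junction gene cx43 0.57 ± 0.156. Of the radial glia list edgeR and limma-voom called 0 genes. By edgeR 6 passed an unadjusted p under 0.05, all of them higher in hm41, beside 5.35% of all tested genes. Of the 15, 3 lay above and 0 below WT in every hm41 library, beside 8.09% and 8.44% of all tested genes. DESeq2 called 2 higher in hm41, cx43 (adjusted p = 0.0161) and slc1a2b (adjusted p = 0.0374), beside 98 of the 19275 genes in its fit. Not all of the 19275 had an adjusted p. Muscle markers were above 0 in 13 of 18, with a median of 0.12 that was -0.07 without WT 67 and 0.40 without WT 68, and sums of 742 to 898.3 CPM in hm41 and 506 to 1013 CPM in WT, so the groups overlapped. The values of pvalb1, atp2a1 and desma, which had the smallest p of the list, were 0.49, 0.39 and 0.32.

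Cell cycle markers, of interest beside tubulins because the spindle is built from them, had a median of -0.04 (8 of 18 above 0 and 10 below), which ranged from -0.11 to 0.04 without each library, and overlapping sums of 38.5 to 48.9 CPM in hm41 and 38.6 to 53.5 CPM in WT. The mitotic kinase gene plk1 (-0.58 ± 0.252, SE), rrm1 (-0.39) and pcna (-0.38) had the smallest p of the list and were not called by edgeR, DESeq2 or limma-voom. For plk1, with fewer counts than tuba1b, DESeq2 may have given no adjusted p. Microglia and macrophage markers were above 0 in 4 and below 0 in 8 of 12 tested. Of the 12, 4 lay below and 1 above WT in every hm41 library, beside 8.44% and 8.09% of all tested genes. Their median of -0.18 was 0.08 without hm41 70, 0.18 without WT 68, -0.03 without hm41 71 and 0.04 with library totals alone. Of the 12, edgeR and limma-voom called csf1ra, to which DESeq2 gave no adjusted p. Without the filter on low counts edgeR also called lgals3bpb (adjusted p = 0.0429), which had 0.0206 ± 0.0356 CPM in hm41 and 0.277 ± 0.0492 CPM in WT. No alternative called ccl34b.1, to which DESeq2 may have given no adjusted p. Its level was 0.124 ± 0.0481 CPM in hm41 and 0.414 ± 0.0704 CPM in WT (SD, n = 3 each). Vessel markers had a median of 0.19, which was 0.05 without WT 66 and 0.07 without WT 67. Of these cdh5 was at 0.53, cldn5b at 0.46 and tek at -0.86, none of them called by edgeR or limma-voom. DESeq2 did not call them either. It gave tuba1b, which had more counts than these 3, no adjusted p, so it may have been unable to call them.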
